A study of Saccharomyces cerevisiae with 3 samples.

Results

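Promoters whose first nucleosome upstream of the transcription start site (TSS), the −1 nucleosome, had been mapped as asymmetric were examined in MNase-seq data from *Saccharomyces cerevisiae*. The list of such genes given with the study, taken from an earlier map of nucleosomes bound by the remodeler RSC, held 115 genes. Ribosomal protein (RP) genes were left out, which concerned 2 genes. A single TSS was required, and the 1999 of 5171 TSS rows used here, those nearest the left ends of the chromosomes, held none for 56 of the genes, 1 of the RP genes among them. The 58 remaining promoters lay on all 16 chromosomes, between 9.3 and 292.9 kb from the left end, and their windows of 500 bp on each side of the TSS did not overlap. They were compared with 1856 other genes, out of 1971 genes with a single TSS in all. The other genes were neither RP genes nor on the asymmetric list. The choice of members used no value from the libraries described here.

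A yeast promoter typically carries a nucleosome-depleted region (NDR) just upstream of the TSS, flanked by the −1 and +1 nucleosomes. RSC is an ATP-dependent remodeler that slides and partly unwraps nucleosomes and helps to keep promoters open. An asymmetric nucleosome is one in which the DNA contacts on one side of the histone octamer differ from those on the other side. Micrococcal nuclease (MNase) cuts linker DNA before nucleosomal DNA and also prefers some sequences, so that a stretch of bare DNA can yield fragments of nucleosome size.

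The libraries analysed were all from strain background BY4741 grown in YPD and cross-linked with formaldehyde. The naked DNA library came from wild-type cells, and its DNA was purified before MNase was added. Both chromatin libraries came from *dst1∆* cells, which lack TFIIS, the factor that helps backtracked RNA polymerase II to resume elongation. No wild-type chromatin was analysed here, so no value below measures an effect of the deletion, and whether the 2 *dst1∆* libraries came from separate cultures is not given in the sources used here. The naked DNA library held 16618987 reads, and *dst1∆* replicates 1 and 2 held 10776646 and 9049024. Distinct positions were 21.5%, 31.8% and 29.3% of the reads, so repeated reads were capped before use. Naked DNA and replicate 1 were sequenced in the same run, with reads of 36 nt. Replicate 2 was sequenced in another run, with another read length, so that replicate and run cannot be told apart. Only mononucleosome-sized DNA cut from a gel was read, from a single end, and these ends do not measure the histone contacts by which the nucleosomes had been called asymmetric. With 1 library against 2, the smallest p an exact permutation test can give is 0.3333, so no test was made and differences are set beside the spread of the 2 replicates. The 1 naked DNA library is used against both replicates, so this spread leaves out the error of the naked DNA values.

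The 58 promoters resembled the other genes in most annotations that the list did not use, but not in the distance to other listed sites. Abf1, a general regulatory factor, was listed at 12 of them (20.7%, against 21.4% of other genes). Rap1, which activates RP and glycolytic genes and also binds telomeres, was listed at 11 (19.0% against 18.8%), and Reb1, another general regulatory factor, at 3 (5.17% against 5.01%). A canonical TATA box was listed for 12 promoters (20.7% against 19.7%). An upstream neighbour pointing the other way was found at 31 promoters (53.4% against 50.5%). MNase-sensitive, or fragile, −1 nucleosomes were listed for 20 of the 58 (34.5%, against 34.5% of other genes). None of these shares stood far from that of the other genes. However, 24 of the 58 had no other listed TSS or gene end within 500 bp upstream, against 480 of the 1856 other genes. Such promoters were thus more frequent here.

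The naked DNA gave less signal upstream of these promoters than upstream of other genes. Signal is the number of capped fragments whose middle 81 bp cover a base, scaled to a genome mean of 100. From 300 to 150 bp upstream of the TSS, called the −1 window here, naked DNA averaged 79.4 over the 58 promoters and 124 over the other genes. Their medians were 27.7 and 47.8. The difference of the means was −0.65 on the log2 scale. It was −0.29 among the 24 promoters and 480 other genes with no other listed TSS or gene end within 500 bp upstream, the smallest size found under any setting. Farther upstream, from 500 to 301 bp, the naked medians were 38.2 and 66.4. In contrast, from the TSS to 150 bp downstream they were close, 46.6 and 44.5.

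A few promoters carried much of the naked signal, as 12 of the 58 (20.7%) exceeded the genome mean of 100, against 32.2% of other genes. *ACH1*, which encodes a mitochondrial enzyme of acetyl-CoA metabolism, was the highest (chrII:193731-193881 in sacCer2, + strand). Its −1 window held 628 in naked DNA, 854 in replicate 1 and 292 in replicate 2, so that naked DNA lay between the 2 chromatin libraries. *EGT2*, a cell wall gene needed for separation of daughter cells (chrXIV:23717-23867, + strand), gave 561 in naked DNA and 70.2 and 11.2 in chromatin. Both *EGT2* chromatin values were far under the naked value, though the promoters named here were chosen as highest in naked DNA. *HSL1*, a protein kinase of the morphogenesis checkpoint (chrXI:247878-248028, + strand), gave 560 in naked DNA, 621 in replicate 1 and 96.0 in replicate 2. *RBD2*, a putative rhomboid protease, gave 333 in naked DNA and 148 and 253 in chromatin.

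At the other end stood promoters that bare DNA hardly represented. *ACP1*, the mitochondrial acyl carrier protein (chrXI:80790-80940, − strand), held 0.818 in naked DNA, 23.4 in replicate 1 and 152 in replicate 2. The naked value rested on 1 fragment centre in the window (95% exact Poisson interval 0.025 to 5.57), against 31 and 159 centres in chromatin. *MAK16*, a ribosome biogenesis gene, held 1.64 in naked DNA and 8.59 and 53.2 in chromatin. In both promoters the 2 chromatin values lay above the naked value, and replicate 2 was the higher one. Both were chosen as lowest in naked DNA, so chromatin above it largely follows from the choice. These intervals cover counting error only, since copies of 1 molecule cannot be told from separate molecules.

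Before correction the −1 window of the 58 promoters was not separated from that of all other genes. In replicate 1 it averaged 94.5 against 115, and in replicate 2 118 against 114. The log2 ratios were −0.28 and 0.05 (mean −0.11 ± 0.23, SD, n = 2), so the 2 replicates differed in sign. Among the promoters and other genes with no other listed site upstream, however, both ratios were positive, at 0.25 and 0.23 (mean 0.24 ± 0.01). To take out the sequence preference of MNase, the naked signal was subtracted at each base and negative values were set to 0. The corrected −1 window then averaged 46.0 against 42.6 in replicate 1 and 85.2 against 65.1 in replicate 2. The corresponding log2 ratios were 0.11 and 0.39 (mean 0.25 ± 0.20, SD, n = 2), a difference little larger than the spread between the replicates. Without a cap on repeated reads they were −0.11 and 0.12, in a window from 350 to 100 bp upstream −0.05 and 0.25, and at a subtraction weight of 0.5 −0.04 and 0.26. With no other listed site upstream they were 0.69 and 0.44. The medians of the corrected window over all promoters and other genes were further apart, with 42.9 against 31.3 in replicate 1 and 65.2 against 43.3 in replicate 2. Other genes listed with a stable −1 nucleosome lay nearer, with medians of 34.8 and 55.3. Those listed as fragile were lower, with 22.7 and 24.7.

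**Figure D1:**
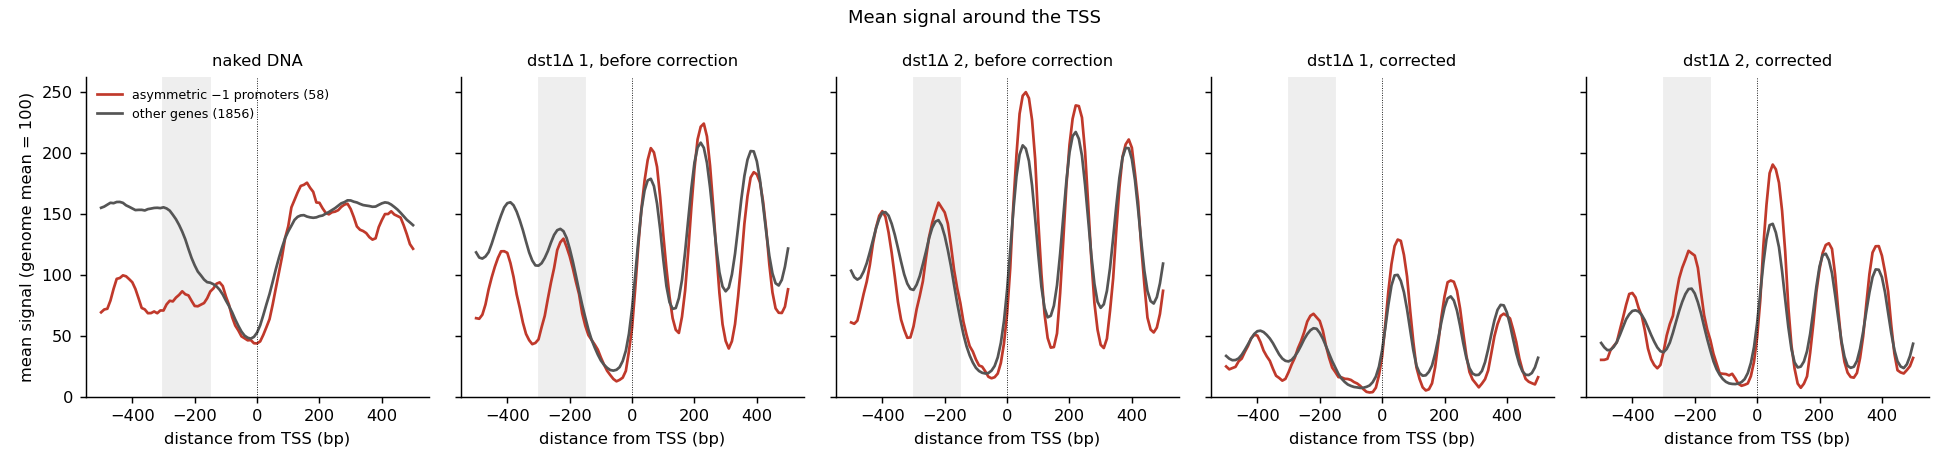
Mean signal (genome mean = 100) against distance from the TSS (bp) for the 58 asymmetric −1 promoters (red) and 1856 other genes (grey), in naked DNA, in each *dst1∆* replicate before correction and in each after subtraction of naked DNA; the shaded band is the −1 window. Upstream of the TSS the red naked DNA line runs under the grey one, and after correction the red −1 peaks (68.0 and 120) stand above the grey ones (56.3 and 88.7).

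The subtraction removed a smaller part of the chromatin signal from these promoters. At the median promoter it took 31.5% in replicate 1 and 20.8% in replicate 2, against 47.0% and 34.0% at the median other gene. Over the summed signal, the share removed was lower by 11.5 percentage points in replicate 1 and by 15.1 in replicate 2 (mean difference −13.3 ± 2.54, SD, n = 2). Thus this difference had the same sign in both replicates and was larger than their spread. The same naked DNA library was subtracted from both, however, so the 2 values are not independent and their spread leaves out its error. Where reads were not capped it was −2.32 points in replicate 1 and −13.5 in replicate 2 (mean −7.89 ± 7.87), no more than about the spread.

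Single promoters ranged widely in the corrected −1 window. *MON2*, which acts in traffic between endosomes and the Golgi (chrXIV:76773-76923, − strand), was the highest on average. It held 82.6 in naked DNA, 164 and 266 in chromatin, and 117 and 222 after correction. Both replicates were thus above naked DNA at *MON2*, and both exceeded the genome mean after correction. *TAX4*, a regulator of phosphoinositide levels, held 53.3 in naked DNA, 127 and 252 in chromatin, and 81.9 and 208 after correction. *SKT5*, an activator of chitin synthase (chrII:107665-107815, − strand), held 24.0 in naked DNA, 75.2 and 246 in chromatin, and 53.1 and 224 after correction. *HOM3*, the aspartate kinase that opens the threonine and methionine pathway, held 15.3 in naked DNA, 65.6 and 233 in chromatin, and 51.2 and 218 after correction. The 4 promoters share the order naked DNA, replicate 1, replicate 2. They were chosen for the signal left after subtraction of naked DNA, so naked DNA below chromatin largely follows from the choice. In other genes, too, the corrected mean was higher in replicate 2 (65.1 against 42.6).

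The lowest corrected value was that of *PFK27*, a 6-phosphofructo-2-kinase that makes a regulator of glycolysis (chrXV:69156-69306, − strand). Its −1 window held 95.0 in naked DNA, 11.2 in replicate 1 and 0.24 in replicate 2, and 0 in both after correction. Replicate 2 held no fragment centre in this window, which allows up to 3 at this depth. *EGT2* followed, with 5.21 and 2.85 after correction. Before correction, *EGT2* had been near the median of the 58 in replicate 1 (70.2 against 69.6) and low in replicate 2 only, while *PFK27* was low in both.

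**Figure D2:**
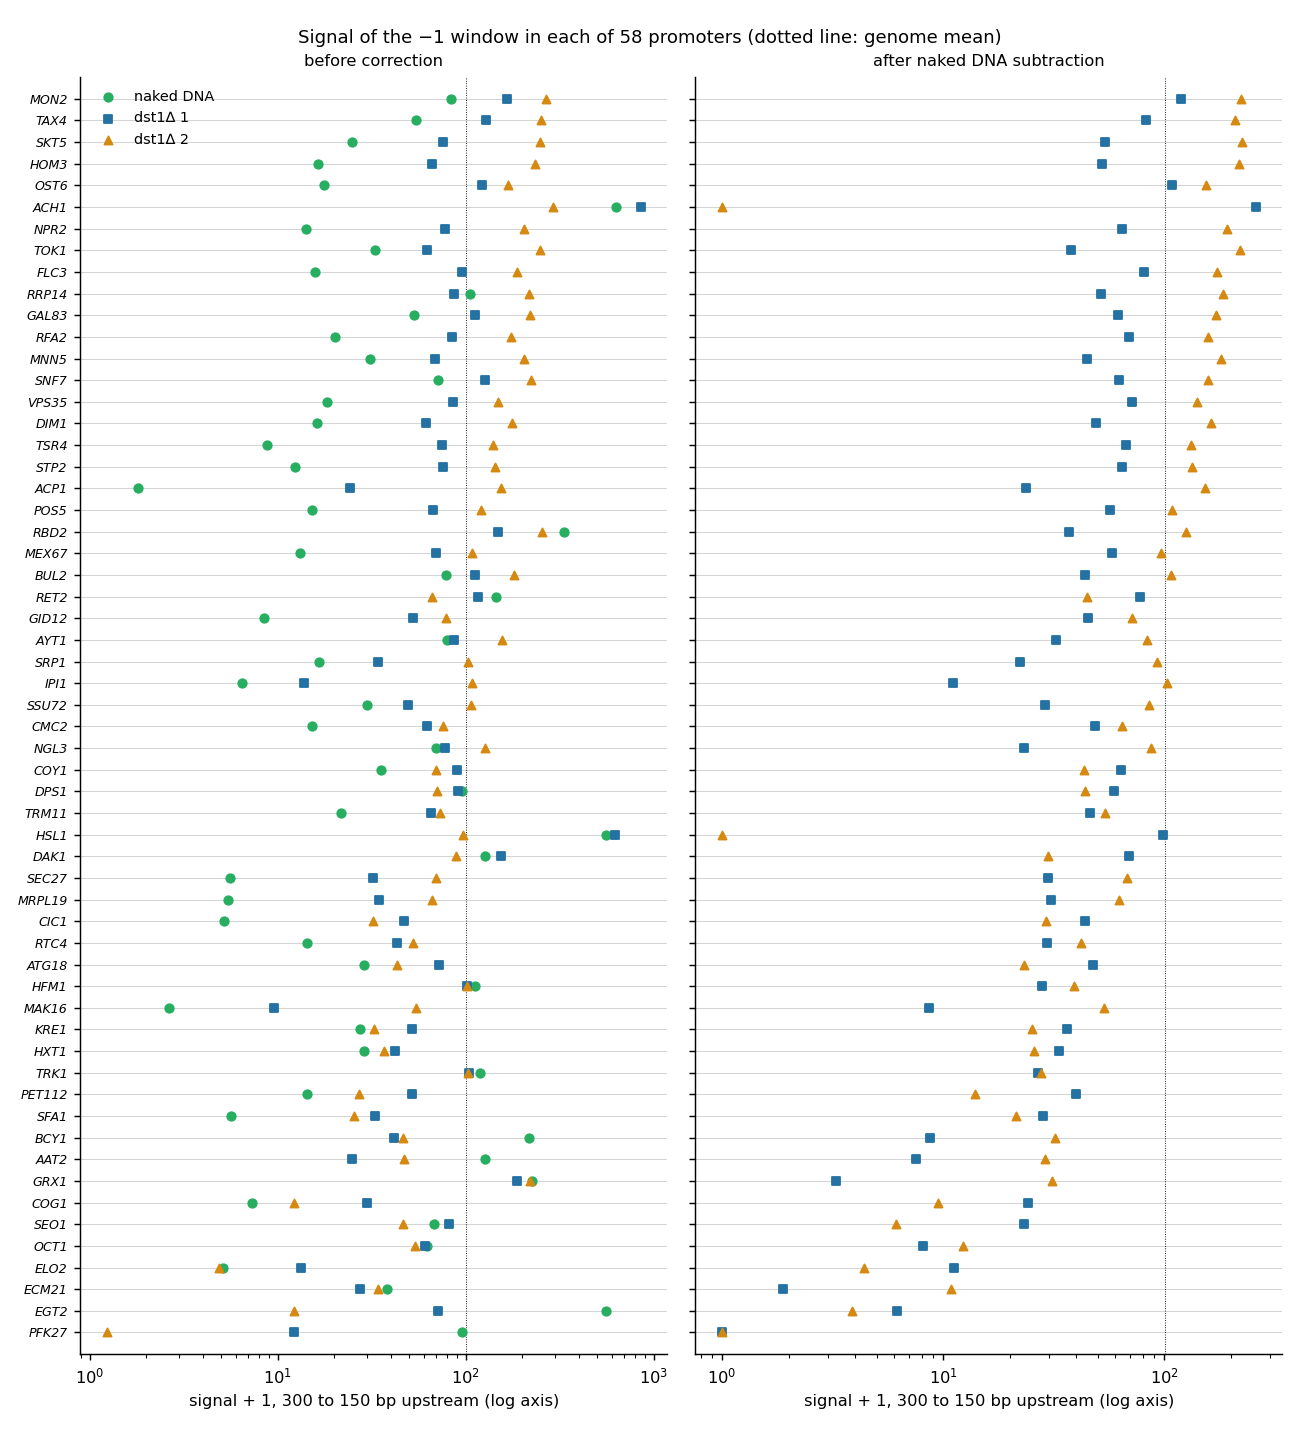
Signal of the −1 window plus 1 (log axis) in each of the 58 promoters, ordered by mean corrected signal; circles are naked DNA, squares *dst1∆* replicate 1 and triangles replicate 2, before correction on the left and after it on the right. *MON2* is at the top, *PFK27* with 0 in both replicates at the bottom, and *ACH1* and *HSL1* have 0 after correction in replicate 2 only.

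Chromatin exceeded naked DNA in the −1 window more often here than elsewhere. With 10 added to each value, 22 of the 58 promoters (37.9%) were at least 2-fold above naked DNA in both replicates, where 24.9% of all 1971 genes were. The excess over other genes was 14.7 percentage points in replicate 1, 14.3 in replicate 2 and 13.0 in both together. It kept its sign under every setting tried, between 9.32 and 20.6 points. The same naked DNA library was set under both replicates in every setting, so these values are not independent. The lower naked signal of these promoters enters all of them. The median log2 ratio of chromatin to naked DNA was 0.84 in replicate 1 and 1.41 in replicate 2, against 0.36 and 0.55 in other genes. Conversely, 4 of the 58 (6.90%) were at least 2-fold below naked DNA in both replicates, where 10.4% of all genes were. These were *EGT2*, *PFK27*, *AAT2*, a cytosolic aspartate aminotransferase, and *BCY1*, the regulatory subunit of protein kinase A. *AAT2* and *BCY1*, named after their values were seen, held 125 and 217 in naked DNA. *AAT2* gave 23.9 and 46.2 in chromatin, and *BCY1* gave 40.6 and 45.7.

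**Figure D3:**
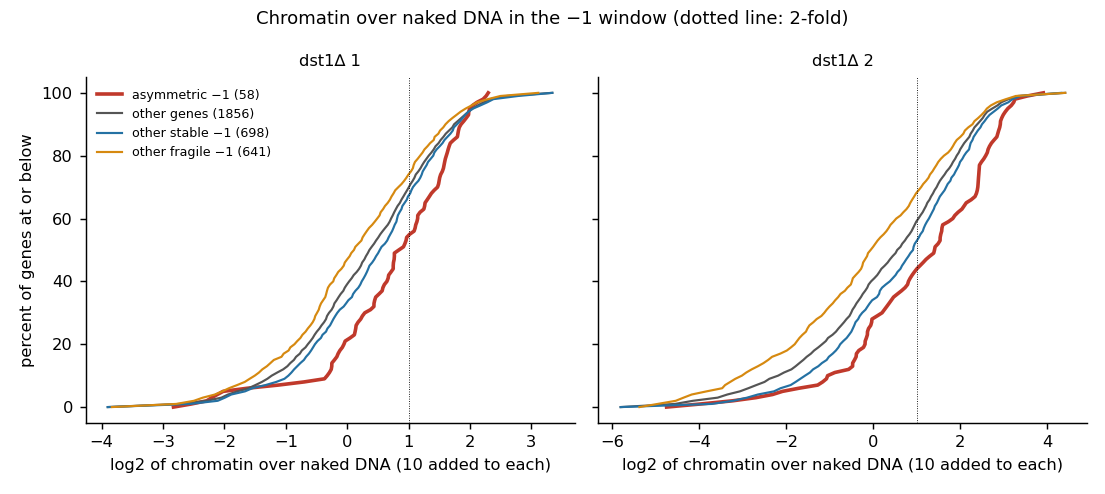
Percent of genes at or below each log2 ratio of chromatin to naked DNA in the −1 window (10 added to each), for the 58 asymmetric −1 promoters and for the other genes, all and split by listed −1 type, in each *dst1∆* replicate. The red line lies to the right of the others over most of its length, with medians of 0.84 and 1.41.

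A −1 nucleosome, a corrected peak of height 20 or more between 350 and 100 bp upstream, was called at 50 of the 58 promoters in replicate 1 and at 53 in replicate 2. It was called in both at 47 of the 58, against 70.9% of all 1971 genes and 72.1% of other genes. The difference from other genes was 4.20 points in replicate 1, 14.1 in replicate 2 and 8.94 in both together, with an SD of 6.97 between the replicates. The 11 promoters without a call in both, read after their values were seen, included *ACH1*, *HSL1* and *PFK27*. They also included *ELO2*, a fatty acid elongase, and *GRX1*, a glutaredoxin. *EGT2* had a peak inside the search range although its −1 window was nearly empty after correction.

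Calls went with the type of −1 nucleosome listed for the gene. Among the 22 promoters listed as stable, 21 had a call in both replicates (95.5%), and 80.2% of other stable genes did. Among the 20 listed as fragile, 13 had one (65.0%, against 59.4% of other fragile genes). However, 10 of those 20 were at least 2-fold above naked DNA in both replicates (50.0%), against 20.4% of other fragile genes, while 6 of the 22 stable ones were (27.3%, against 28.5%). The naked median of the fragile promoters was 18.2, under the 49.8 of other fragile genes. The list of stable genes used is complete for chromosomes VIII to XVI, where 16 of 38 promoters were fragile (42.1%, against 34.2% of other genes there), 20 stable (52.6% against 57.4%) and 2 neither.

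Promoters with a divergent upstream neighbour, one pointing the other way, and those behind a tandem gene also differed in calls. No limit was set on the distance to the neighbour, so whether a promoter was shared was not measured. A −1 nucleosome was called in both replicates at 28 of 31 divergent promoters (90.3%) and at 19 of 27 tandem ones (70.4%). In other genes the shares were 72.7% and 71.8%. The corrected −1 means of the divergent promoters were 47.6 and 96.6, and those of the tandem ones 44.1 and 72.1. Of the 12 promoters with a TATA box, 6 had a call (50.0%, against 54.8% of other TATA genes) and 1, *HOM3*, was 2-fold above naked DNA in both (8.33%, against 14.2% of other TATA genes). Those 12 averaged 184 in naked DNA, close to the 175 of other TATA genes. *ACH1*, *EGT2*, *GRX1* and *RBD2* are among them. The 35 promoters with none of Abf1, Rap1 and Reb1 averaged 58.2 in naked DNA, against 106 in the other genes without these factors. None of the 35 was 2-fold below naked DNA in both replicates, against 7.60% of the other genes without these factors.

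By their medians, called −1 nucleosomes had much the same place as in other genes, and corrected peaks of much the same width. Called dyads, the centres of the corrected peaks, lay at a median of 220.5 bp upstream in replicate 1 and 226 bp in replicate 2. The other genes had medians of 226 and 225 bp. The median distance from the −1 to the +1 dyad was 271 and 270 bp, against 273 bp in both replicates of other genes. The means of this distance were further apart, 274 and 276 bp against 284 bp in both. The highest peak of the mean chromatin before correction also lay nearer the TSS, at a median of 221 bp upstream against 231 bp. Fuzziness, the SD of positions weighted by corrected signal within 100 bp of a dyad, had medians of 26.5 and 25.4 bp, against 25.4 and 25.6 bp. The differences in fuzziness were about 1 bp or less and went in different directions in the 2 replicates. Each centre in this signal was already spread over 81 bp, which widens every value and compresses differences between genes.

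Because the list names an asymmetry, the 2 edges of the −1 nucleosome were compared. Fragment ends were counted within 40 bp of the points lying 73 bp on each side of the −1 peak, which was found in the mean chromatin signal of 56 promoters and 1739 other genes. Edge balance is the log2 of ends at the upstream edge over ends at the TSS edge, with 1 added to each, so 0 means equal edges. Its median was −0.01 in replicate 1 and −0.23 in replicate 2, against −0.05 and −0.15 in other genes. The differences, 0.05 and −0.08, lay on both sides of 0 (mean −0.01 ± 0.09, SD, n = 2). Naked DNA at the same places had a median of −0.12, against 0.00 in other genes. In 30 of the 56 promoters (53.6%) the balance had the same sign in both replicates, against 59.2% of other genes. The balance was thus not separated from that of other genes with capped reads. With no cap the differences were 0.12 and 0.04 (mean 0.08 ± 0.06, SD, n = 2), and with 1 read per strand position 0.13 and 0.06 (mean 0.09 ± 0.05), so that there both replicates leaned to the upstream edge by slightly more than their spread.

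Single promoters had strongly unequal edges in 1 replicate or in both. The upstream edge was 2-fold heavier in both replicates at 2 of the 56, where 5.11% of all 1838 genes measured were, and the TSS edge at 3, where 8.71% of all were. *CIC1*, a gene of 60S ribosome assembly, had 39 ends at the upstream edge and 6 at the TSS edge in replicate 1, and 22 and 5 in replicate 2. In naked DNA *CIC1* had 2 and 1, and its balance was 2.52 and 1.94 in the 2 chromatin libraries. *RET2*, a subunit of the COPI coat, had 18 and 85 ends in replicate 1 and 3 and 49 in replicate 2, and thus a heavier TSS edge in both. *RET2* had 1 and 5 ends in naked DNA. Promoters named for their edges had to have the same sign in both replicates, so agreement in sign follows from the choice.

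The other extreme promoters differed mostly in replicate 2. *POS5*, a mitochondrial NADH kinase, had 34 upstream ends and 28 TSS ends in replicate 1, but 94 and 3 in replicate 2. *SNF7*, a subunit of the ESCRT-III membrane-sorting complex, had 68 and 49, then 176 and 15. *TRM11*, part of a tRNA methyltransferase, had 20 and 39, then 0 and 60. *CMC2*, needed for cytochrome c oxidase assembly, had 19 and 39, then 2 and 68. Across all 56 promoters the middle 50% of balances spanned −0.51 to 0.69 in replicate 1 and −1.34 to 1.42 in replicate 2, and in other genes −0.57 to 0.40 and −1.47 to 1.00. The wider span in replicate 2 was thus found in the other genes too.

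**Figure D4:**
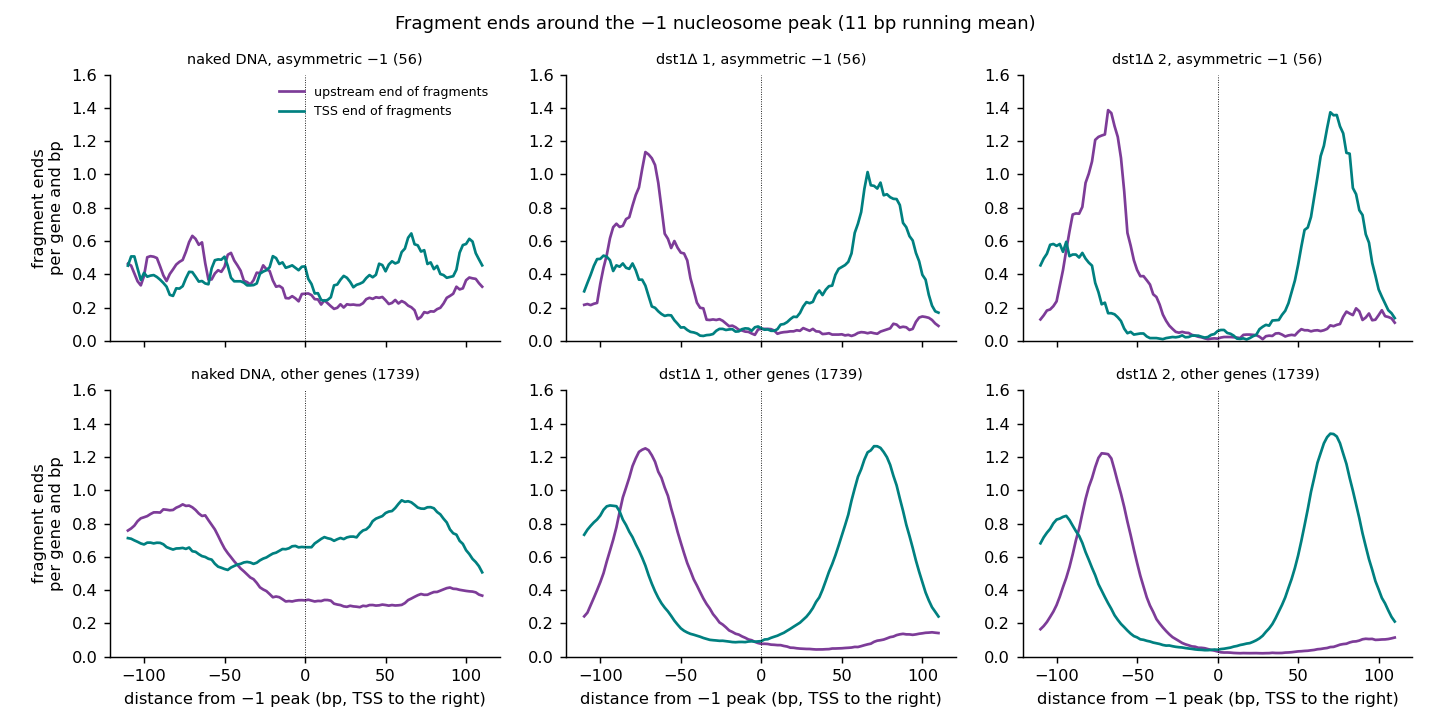
Fragment ends per gene and bp (11 bp running mean) against distance from the −1 peak, with the TSS to the right, for upstream ends (purple) and TSS-side ends (green), in naked DNA and in each *dst1∆* replicate; the upper row shows 56 asymmetric −1 promoters and the lower row 1739 other genes. The peak was found in chromatin, so the 2 humps on each side of it in chromatin follow from the alignment; their heights are what can be compared.

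Edge width differed little and with no common sign. The SD of end positions at the upstream edge minus that at the TSS edge had a median of −0.09 bp in each replicate, against 0.06 and −0.45 bp in other genes. The difference was −0.14 bp in replicate 1 and 0.36 bp in replicate 2 (mean 0.11 ± 0.36, SD, n = 2). Where no other site was listed upstream it was −0.51 and −1.67 bp (mean −1.09 ± 0.82), of the other sign and beyond the spread. On simulated reads the measure came out smaller than the difference put in, so these values may understate a difference in width. The distance between the mean positions of both edges had medians of 146.5 and 143.5 bp, against 144.3 and 143.5 bp in other genes. Replicate 2 was read with 50 nt, but nearly all its deposited reads span 46 bp, and which end was shortened is not given. Its edge and dyad positions may therefore be off by a few bp, in all genes alike.

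On the TSS side, these promoters had a lower NDR at the median and a higher +1 nucleosome. The NDR, from 150 bp upstream to the TSS, averaged 29.9 and 33.2 before correction, against 35.4 and 34.2. The log2 ratios were −0.24 and −0.04 (mean −0.14 ± 0.14, SD, n = 2), a difference of about the spread. The medians were 13.7 and 11.7, against 19.6 and 17.2, so both replicates were lower on that scale (mean log2 ratio −0.54). Other genes listed with a fragile −1 nucleosome had NDR medians of 14.4 and 10.0, so the low median was not particular to these promoters. From the TSS to 150 bp downstream, the corrected +1 window averaged 68.8 against 58.3 in replicate 1 and 103 against 84.0 in replicate 2. These gave log2 ratios of 0.24 and 0.30 (mean 0.27 ± 0.04, SD, n = 2), larger than the spread. Without a cap on repeated reads the +1 ratio was 0.04, with −0.05 in replicate 1 and 0.14 in replicate 2. A +1 nucleosome was called at 55 promoters in replicate 1 (94.8%, against 88.5% of other genes) and at 52 in replicate 2 (89.7% against 81.3%).

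The +1 and −1 windows of 1 promoter could differ sharply. *ACP1*, so poor in naked DNA at −1, held 524 in naked DNA at +1, with 364 and 218 in chromatin and at most 0.02 after correction. *ELO2*, whose −1 window held 12.4 and 3.87 in chromatin, held 115 and 314 at +1 and 92.1 and 291 after correction. Both were chosen here after their values were seen.

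By function, 52 of the 58 genes fell into 8 groups, and the −1 signal varied among and within them. For scale, 70.9% of all genes had a −1 call in both replicates, and the groups hold only 4 to 10 genes. The 10 genes of secretory and endosomal traffic all had such a call, and their corrected medians were 62.1 and 103. *MON2* and *SNF7* led them before correction, and *SNF7* held 70.2 in naked DNA and 126 and 222 in chromatin. Of 5 genes of nutrient and stress signalling all had a call, and their corrected medians were 63.4 and 170. *GAL83*, a subunit of the Snf1 kinase, held 52.0 in naked DNA and 112 and 220 in chromatin. The exception in that group was *BCY1*, with 7.72 and 30.9 after correction.

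The 8 genes of ribosome assembly and translation had the lowest naked median of the groups, 11.5, and 6 had a call in both. *RRP14*, a ribosome biogenesis gene, held 105 in naked DNA, 86.1 in replicate 1 and 218 in replicate 2, so that only replicate 2 exceeded naked DNA. *DIM1*, the dimethylase of 18S rRNA, held 15.3 in naked DNA and 60.5 and 175 in chromatin. Among the 7 mitochondrial genes, 5 had a call in both and 4 were 2-fold above naked DNA in both. *POS5* held 14.3 in naked DNA and 66.3 and 120 in chromatin. The 5 nuclear genes all had a call. *RFA2*, a subunit of the single-strand DNA-binding complex RPA, held 19.2 in naked DNA and 83.8 and 173 in chromatin, whereas the meiotic helicase gene *HFM1* held 111 in naked DNA and 100.2 and 100.5 in chromatin.

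Metabolic genes stood lowest in the mean of both replicates, with a corrected median of 17.3. Of these 7 genes, 3 had a call in both replicates, and the medians were 10.2 in replicate 1 and 28.0 in replicate 2. In replicate 2 alone, the cell wall and transport groups were lower still (13.5 and 25.8). *GRX1* held 225 in naked DNA, 188 in replicate 1 and 218 in replicate 2, so that little was left after correction (2.29 and 29.9). *HOM3* and *SFA1*, which encodes a formaldehyde dehydrogenase, were 2-fold above naked DNA in both replicates, and they and *DAK1*, a dihydroxyacetone kinase, had the 3 calls. None of the 6 genes of transport and the plasma membrane was 2-fold above naked DNA in both replicates, where 24.9% of all genes were, and their corrected medians were 29.2 and 25.8. *TOK1*, a potassium channel, held 32.1 in naked DNA, 61.7 in replicate 1 and 248 in replicate 2. *BUL2*, an adaptor of the ubiquitin ligase Rsp5, held 77.8 in naked DNA and 111 and 181 in chromatin. The 4 genes of the cell wall and cell division ranged from *EGT2* to *SKT5*. The groups are small and overlap in their ranges.

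**Figure D5:**
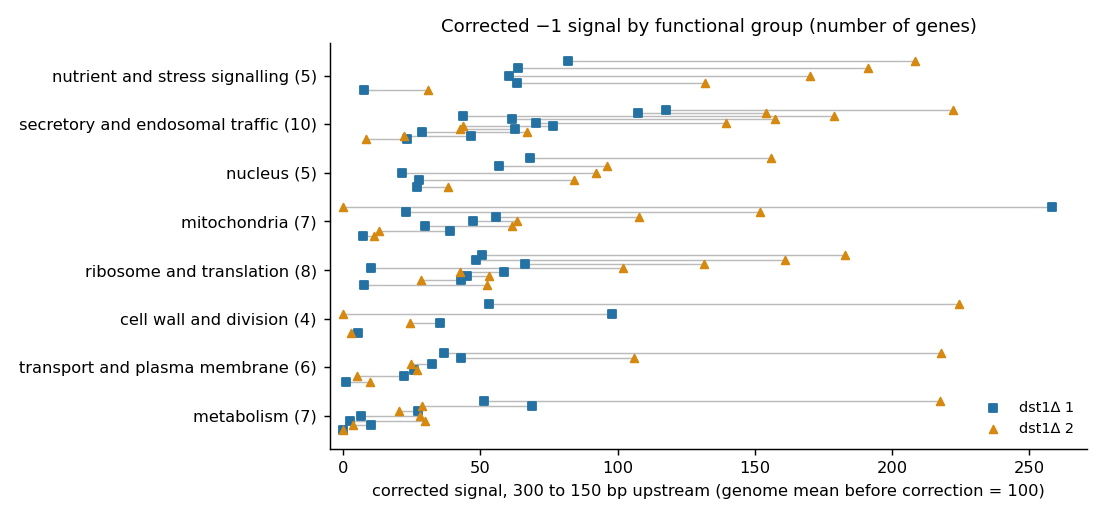
Corrected signal of the −1 window for the 52 grouped genes; squares are *dst1∆* replicate 1, triangles replicate 2, and a grey line joins the 2 values of a gene. Groups are ordered by the median of the 2-replicate mean, with metabolic genes at the bottom (medians 10.2 and 28.0) and nutrient and stress signalling genes at the top (63.4 and 170), with overlap among all groups.

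The replicates diverged at single promoters by far more than in the means. Before correction, 39 of the 58 were higher in replicate 2 (67.2%), against 53.3% of other genes and 58.7% of other stable genes. The median log2 difference was 0.61, against 0.11 in other genes. *HSL1* had the largest difference, at −2.57 on the log2 scale with 10 added. *IPI1*, a gene of 60S ribosome maturation, held 5.45 in naked DNA, 12.9 in replicate 1 and 107 in replicate 2, a log2 difference of 2.36. *ACP1* differed by 2.28. At *HSL1* replicate 1 lay near naked DNA and replicate 2 far under it, while at *IPI1* and *ACP1* replicate 2 was the higher one. Across the bases of each window, the profile of replicate 1 had a median correlation of 0.44 with naked DNA and that of replicate 2 of 0.14, against 0.50 and 0.19 in other genes. Only replicate 1 shared its sequencing run with naked DNA, so chromatin and run cannot be told apart in this contrast. The 2 replicates had a median correlation of 0.71 with each other, against 0.72. Neighbouring bases share fragments, so these correlations are descriptions only.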

How the data were processed

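MNase-seq was made from 1 naked DNA library and 2 *dst1∆* chromatin libraries. Read alignment to sacCer2 was done by the authors with GEM, and reads with at most 3 mismatches and a single place in the genome were retained. Each line of the deposited data gives the position and strand of a read. It also carries a display score that the authors gave as 1000 throughout, and this score was not used. Their own correction by DANPOS was not run here.

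To limit copies, no strand position counted more reads than a Poisson limit allowed (p of 1e-10, giving 11, 9 and 9 reads), which kept 65.2%, 70.5% and 72.5% of the reads. Each read start was moved 73 bp towards the fragment centre, each centre was spread over 81 bp, and signals were divided so that the genome mean was 100. Peaks of height 20 or more and 100 bp or more apart were taken after Gaussian smoothing (SD 20 bp). Mitochondrial reads were left out. Python 3.11.15, numpy 2.4.6, scipy 1.17.1 and pandas 2.3.3 were used, and the steps were tested on simulated reads.

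Gene lists and TSS positions come from the supplementary lists given with the study, of which part of the TSS and stable rows was used. Gene symbols and neighbours come from RefSeq R64 (58 of 58 matched), and no coordinate of that build is given. Promoter sequences were not used here. Members and functional groups were chosen with earlier results of these data known. By a rule, the text names the promoters highest and lowest in naked DNA (4 and 2) and in corrected signal (4 and 2), the 3 with the heaviest edge on each side, the 3 that differ most between replicates, and the 2 highest of each group. Those named for an edge also had to have the same sign in both replicates and at least 20 edge reads in each. Others were named after their values were seen.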

Additional observations from a re-analysis of the deposited data

Results flagged for a closer look

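Replicate 2 of *dst1∆* held 1285 mitochondrial reads, where the naked DNA library and replicate 1 held 0. These reads lie outside the nuclear windows used for the 58 promoters and enter none of the values, and why they occur in a single library was not tested.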

How the results depend on the processing

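No value here has a test, and each rests on 1 naked DNA library and 2 *dst1∆* replicates. No paired analysis was possible because only the *dst1∆* libraries carry replicate numbers. Of 118 alternative values, 80 stayed within the spread between replicates (for naked DNA, within counting error), 37 moved further and 1 difference beyond the spread was reversed. In all, 13 values had the other sign, 12 of them for the −1 window before correction and the edges, whose main differences were within the spread. Without any correction the log2 ratio of the −1 window was −0.11 in place of 0.25. With no cap on repeated reads the ratios were −0.54 for naked DNA, 0.0062 for the corrected −1 window and 0.044 for +1, the removed share differed by −7.89 points, the edge balance by 0.080 and the genes 2-fold above naked DNA by 14.0 points. With 1 read per strand position they were −0.41 for naked DNA, 0.15 for +1, 0.095 for the balance and 12.1 points. With no other listed site upstream they were −0.29 for naked DNA, 0.24 for the −1 window before and 0.56 after correction, 0.34 for +1, −9.66 points removed, −1.09 bp for edge spread, 16.5 points for called nucleosomes and 20.6 points for genes above naked DNA. More than 30 kb from a chromosome end, naked DNA gave −0.83 and genes above naked DNA 15.9 points. Ratios of medians, an alternative chosen after seeing the data, were −0.79 for naked DNA, 0.52 for the corrected −1 window, −0.54 for the NDR and 0.47 for +1. The +1 ratio was 0.34 when scaled to the genome median, 0.12 without correction, 0.19 as a ratio to naked DNA and 0.19 at a subtraction weight of 0.5. Edge spread was −0.32 bp within 25 bp of the edge. Genes above naked DNA differed by 11.3 points with 150 bp per centre, 17.0 scaled to the genome median, 11.3 at equal depth, 9.32 in a window from 350 to 100 bp, 14.4 with a pseudocount of 1 and 17.3 at 1.5-fold. With either replicate left out they differed by 14.3 to 14.7 points, but these are shares in 1 replicate, where the main value is the share in both. The spread set beside this result is likewise that of the shares in single replicates (SD 0.27), so small shifts count as moved. The cause of the other shifts was not tested.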
